A study of Mus musculus with 6 samples.

Results

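Transforming growth factor-beta (TGF-beta) signalling was followed in C2C12 myotubes through 9 genes, which were 3 ligands (*Tgfb1*, *Tgfb2* and *Tgfb3*), 2 receptors (*Tgfbr1* and *Tgfbr2*), the signal transducer *Smad3*, the inhibitory *Smad7*, the corepressor *Tgif2* and the matricellular target *Ctgf*. They were chosen by symbol, with values of these same arrays already known, and each was read by 1 gene-level probe set that carries no other symbol, giving 9 of the 22206 probe sets of the array. Log2 signals of the arrays of each dose against the untreated arrays were the values in view at that choice, so the values of the 9 genes are a description and carry no test. C2C12 is a myoblast line from mouse skeletal muscle, and its myotubes had been differentiated for 6 days. The study asked how a sugarcane top ethanol extract (STEE) alters transcripts in muscle cells, and it compared untreated myotubes (Ctrl-M) with myotubes given 30 µg/mL (STEE30-M) or 50 µg/mL (STEE50-M) of the extract for 6 h. Each group had 2 Clariom S Mouse arrays, 6 in all.

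The extract was kept in an ethanol solution and diluted in serum-free Opti-MEM. The labels do not say whether the untreated myotubes received the same change of medium or the ethanol. The extract, its ethanol and the medium therefore cannot be told apart in any comparison with Ctrl-M. The study's methods call the 2 arrays of a group biological samples, while the labels do not say that they came from separate cultures. The p-values set each difference against the spread between these arrays, which limma draws in part from all probe sets. A standard error (SE) is therefore not the spread of a gene's own arrays alone. Both comparisons with Ctrl-M use the same 2 control arrays.

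TGF-beta ligands are secreted in a latent form, are freed at the cell surface or in the matrix, and bring the type II receptor together with the type I receptor, whose kinase phosphorylates Smad2 and Smad3. These enter the nucleus with Smad4 and switch target genes on or off, while Smad7 and the TGIF and SKI proteins restrain the signal. In muscle the pathway is known for holding back myoblast differentiation and for driving fibrosis, in which connective tissue growth factor, the product of *Ctgf*, is a long-known effector. *Ctgf* is also induced by serum and by the YAP-TEAD transcription factors, so its level is not a readout of TGF-beta alone.

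The arrays differed little as a whole, with medians of 5.70 to 5.77 log2 signal and correlations between arrays of 0.991 to 0.994. All 10 myotube markers listed were above the background level of 5.32 log2 signal, the 95th percentile of 1448 probe sets for chemosensory receptors. Of 8 markers of other cell types (leukocytes, macrophages, endothelium, epithelium, fat, fibroblasts and glia), *Pdgfra* was above it and the other 7, among them *Ptprc*, *Pecam1* and *Epcam*, were not. The mean level of these 8 genes was 3.99 and 4.17 in the Ctrl-M arrays and ran from 3.97 to 4.20 in the treated arrays. The mean of the myotube markers was 14.76 and 14.92 in Ctrl-M, 14.75 and 15.14 in STEE30-M, and 14.93 and 15.54 in STEE50-M. STEE50-M replicate 2 thus had the highest level of these genes. By group mean all 10 were higher in STEE50-M than in Ctrl-M, with a median log2 difference of 0.39. The 2 groups did not overlap for 5 of the 10, beside 34.7% of all probe sets. In STEE50-M replicate 1, *Myh8*, *Ckm*, *Des* and *Chrna1* lay below both control arrays. The list mean of that array, 14.93, was close to that of Ctrl-M replicate 2. *Myh3* (embryonic myosin heavy chain, 0.64, SE 0.24) was the 1 marker that passed the study's thresholds, where 5.05% of all probe sets did. These thresholds are a linear fold of at least 1.2 with an unadjusted p under 0.05, applied here in limma. At 30 µg/mL the median of the 10 was 0.11 and 0 passed, beside 4.09% of all probe sets. Of 6 markers of myoblasts and reserve cells 5 were above background, all but *Pax7*, and *Mki67* had a mean of 15.03. Genes of undifferentiated or dividing cells were thus also read in these cultures. At either dose 0 of the 6 passed, beside the shares of all probe sets given above, and their mean ran from 10.33 to 10.67 over the arrays. The part of the myotube genes' shift in the results was not tested. In such bulk RNA, fewer cells of a type and less RNA per cell cannot be told apart.

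In STEE50-M, *Ctgf* and the type I receptor *Tgfbr1* lay lower than in Ctrl-M by 1.48-fold and 1.46-fold, and *Tgif2* lay higher by 1.53-fold. At 30 µg/mL, *Tgif2* lay higher by 1.71-fold, and the decreases of *Ctgf* and *Tgfbr1* were smaller, at 1.23-fold and 1.21-fold. The ligands, *Tgfbr2* and *Smad3* differed from Ctrl-M by at most 0.21 on the log2 scale at either dose. The study's thresholds were passed in limma by 1 of the 9 genes at 30 µg/mL, where 4.09% of all probe sets passed, and by 3 of the 9 at 50 µg/mL, where 5.05% passed. Because the genes were picked with these contrasts known, nothing is read from these counts. Over all probe sets the smallest Benjamini-Hochberg adjusted p in limma was 0.998 at 30 µg/mL and 0.952 at 50 µg/mL. Thus 0 probe sets passed an adjusted 0.05, against 909 and 1121 with an unadjusted p under 0.05. Where nothing differs, a share of 0.05 is expected under that unadjusted p, and the shares here were 4.09% and 5.05%. Across the 9 genes the median log2 difference was 0.10 at 30 µg/mL and 0.02 at 50 µg/mL, beside -0.01 over all probe sets at each dose.

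**Figure D1:**
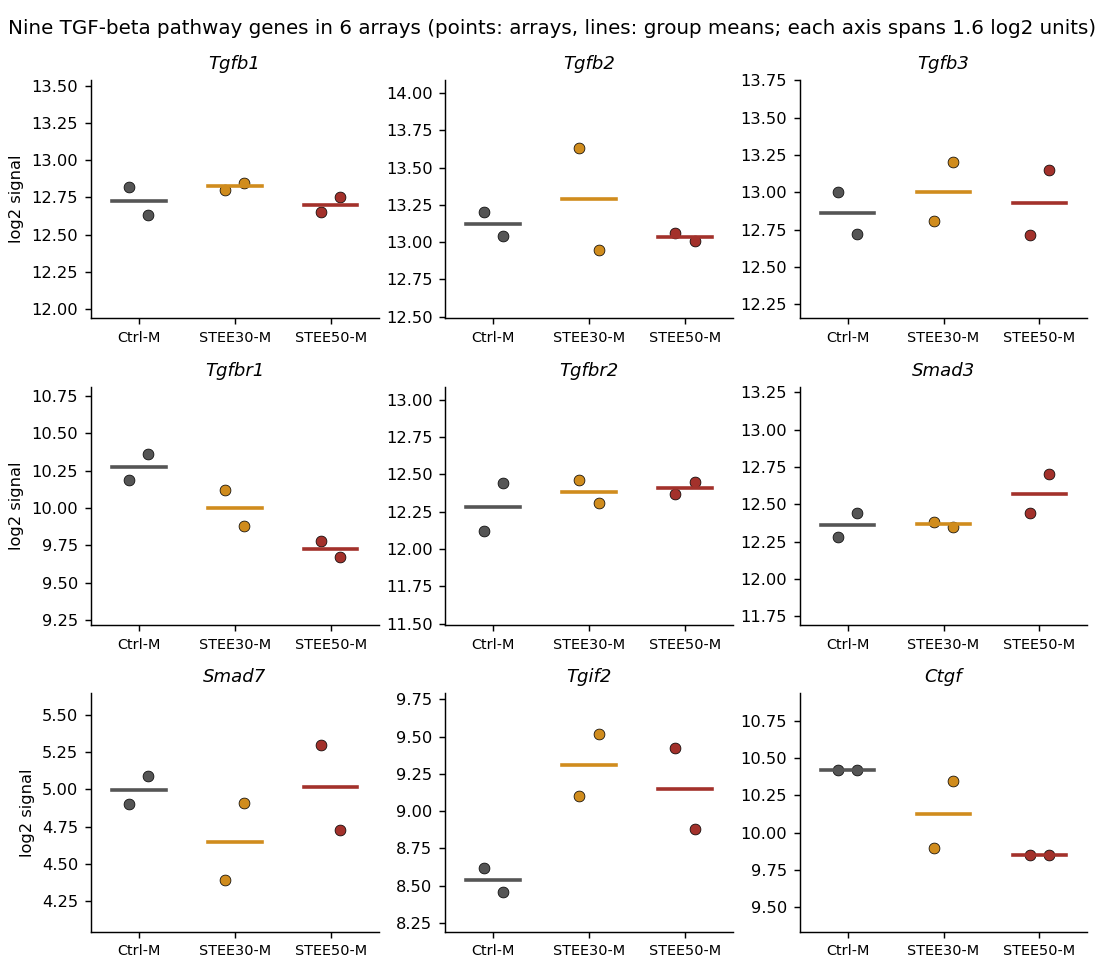
Log2 signal (y axis) of the 9 genes in Ctrl-M, STEE30-M and STEE50-M (x axis), with a point for each of the 6 arrays and a line at each group mean. *Tgif2* lies above both control arrays in all 4 treated arrays, *Ctgf* and *Tgfbr1* lie below them, and every panel spans 1.6 log2 units around its own level.

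*Ctgf* (probe set TC1000000215.mm.2, the gene that RefSeq now calls *Ccn2*, GRCm38 chr10:24595442-24598683) encodes the secreted CCN protein that binds matrix, integrins and growth factors. Its log2 signal was 10.42 and 10.42 in Ctrl-M, 9.90 and 10.35 in STEE30-M, and 9.85 and 9.85 in STEE50-M. All 4 treated arrays were below both control arrays. STEE30-M replicate 2 lay just below them, while STEE30-M replicate 1 lay near the arrays of STEE50-M. The differences from Ctrl-M were -0.29 at 30 µg/mL and -0.57 at 50 µg/mL on the log2 scale (SE 0.22, n = 2 against 2). Without STEE30-M replicate 1 the difference at 30 µg/mL was -0.07, and without STEE30-M replicate 2 it was -0.52, so that value rests on which of the 2 arrays is used. At 50 µg/mL it was -0.57 whichever single array was left out, since the arrays within Ctrl-M and within STEE50-M were equal to 2 decimals. With an unmoderated test on all arrays, *Ctgf* did not pass the study's thresholds at 50 µg/mL. Groups without overlap in either direction were frequent on this array, at 30.2% of all probe sets for STEE30-M and 34.7% for STEE50-M against Ctrl-M, and 28.4% between the doses.

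*Tgfbr1* (TC0400000519.mm.2, chr4:47353222-47414926) encodes the type I receptor kinase that passes the signal to Smad2 and Smad3. It stood at 10.19 and 10.36 in Ctrl-M, 10.12 and 9.88 in STEE30-M, and 9.78 and 9.67 in STEE50-M. The 3 groups did not overlap and were ordered by dose, Ctrl-M highest and STEE50-M lowest. How many of all probe sets have such an order was not counted, so no response to dose is read from it. The log2 difference from Ctrl-M was -0.28 at 30 µg/mL and -0.55 at 50 µg/mL (SE 0.21), and the 2 doses differed by -0.28. Both of these smaller steps rested on single arrays, since the difference at 30 µg/mL was -0.40 without STEE30-M replicate 1 and -0.15 without STEE30-M replicate 2, and that between the doses was -0.15 and -0.40. With each array left out in turn, the difference at 50 µg/mL ranged from -0.64 to -0.47.

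*Tgif2* (TC0200002401.mm.2, chr2:156839817-156855570) encodes a homeodomain protein that binds activated Smads and represses transcription. It stood at 8.62 and 8.46 in Ctrl-M, 9.10 and 9.52 in STEE30-M, and 9.42 and 8.88 in STEE50-M. Every treated array was above both control arrays, while the arrays of the 2 doses overlapped. The log2 difference from Ctrl-M was 0.77 at 30 µg/mL and 0.61 at 50 µg/mL (SE 0.26), and that between the doses was -0.16. Leaving out STEE50-M replicate 1 gave 0.34 at 50 µg/mL, and leaving out STEE50-M replicate 2 gave 0.88, the widest range among the 3 genes that passed the thresholds. At 30 µg/mL the range with 1 array left out was 0.56 to 0.98.

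**Figure D2:**
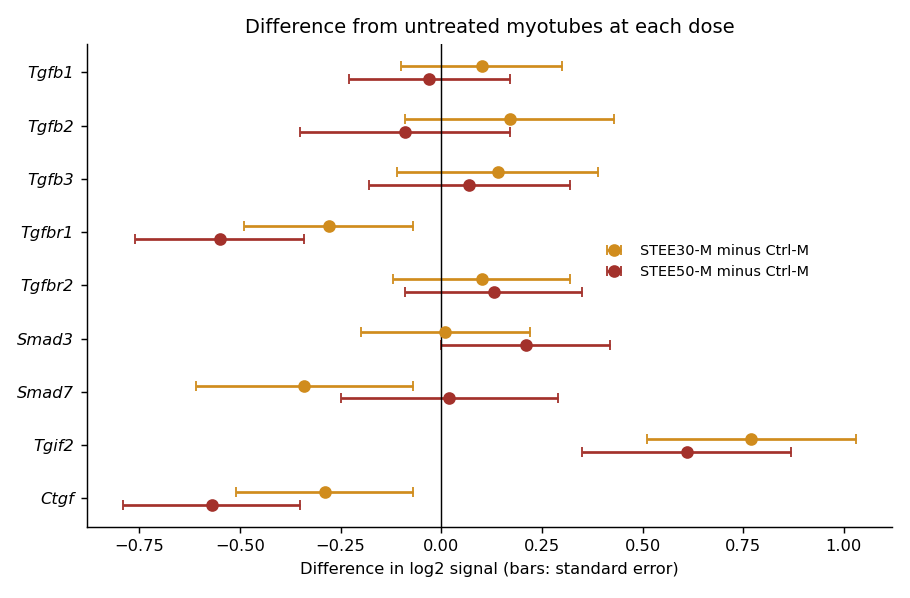
Difference in log2 signal from Ctrl-M (x axis) for the 9 genes (y axis) in STEE30-M and STEE50-M, with bars for the standard error of the fit. *Tgif2* is higher by 0.77 and 0.61, *Ctgf* and *Tgfbr1* are lower, at -0.57 and -0.55 in STEE50-M, and the ligands, *Tgfbr2* and *Smad3* lie within 0.21 of 0.

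The ligands are dimeric cytokines that signal through the same pair of receptors. *Tgfb1* (TC0700000424.mm.2) stood at 12.82 and 12.63 in Ctrl-M, 12.80 and 12.85 in STEE30-M, and 12.65 and 12.75 in STEE50-M. *Tgfb2* (TC0100003754.mm.2) stood at 13.20 and 13.04, 13.63 and 12.95, and 13.06 and 13.01 in the same order, and 1 array, STEE30-M replicate 1, was above the rest. *Tgfb3* (TC1200002103.mm.2) stood at 13.00 and 12.72, 12.81 and 13.20, and 12.71 and 13.15. The treated arrays of all 3 ligands overlapped those of Ctrl-M, and their differences from Ctrl-M ran from -0.09 to 0.17 (SE 0.20 to 0.26). Single arrays changed the sign of several of them. With 1 array left out, *Tgfb2* at 30 µg/mL ran from -0.17 without STEE30-M replicate 1 to 0.51 without STEE30-M replicate 2. *Tgfb3* ran from -0.05 to 0.34 at 30 µg/mL and from -0.15 to 0.29 at 50 µg/mL, and *Tgfb1* at 50 µg/mL from -0.12 to 0.07.

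*Tgfbr2* (TC0900003199.mm.2), the type II receptor that binds ligand first, stood at 12.12 and 12.44 in Ctrl-M, 12.46 and 12.31 in STEE30-M, and 12.37 and 12.45 in STEE50-M. Its differences of 0.10 and 0.13 (SE 0.22) were within the gap between the control arrays, and with 1 array left out they ran from -0.06 to 0.27 at 30 µg/mL and from -0.03 to 0.29 at 50 µg/mL. *Smad3* (TC0900002480.mm.2) stood at 12.28 and 12.44, 12.38 and 12.35, and 12.44 and 12.70, and differed by 0.01 at 30 µg/mL and 0.21 at 50 µg/mL (SE 0.21). *Smad7* (TC1800000805.mm.2), which the pathway induces and which then blocks the type I receptor, stood at 4.90 and 5.09, 4.39 and 4.91, and 5.30 and 4.73. Its mean over the arrays, 4.89, was under the background level, and its differences are not read further. The other 8 genes were above it.

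Between the 2 doses, 0 of the 9 genes passed the thresholds in limma, where 4.61% of all probe sets did, and their differences ran from -0.28 (*Ctgf* and *Tgfbr1*) to 0.36 (*Smad7*, below background). For *Ctgf* that difference was -0.05 without STEE30-M replicate 2 and -0.50 without STEE30-M replicate 1. These arrays therefore do not settle whether *Ctgf* differed between 30 and 50 µg/mL.

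The genes around the pathway were described from lists of 79 other genes, 71 of them above background. At 30 µg/mL, 2 of the 79 passed the thresholds as higher and 1 as lower, or 3.8% against 4.09% of all probe sets. In STEE50-M, 1 was higher and 1 lower, or 2.53% against 5.05%, and between the doses 1 was higher, or 1.27% against 4.61%. The median log2 difference of the 79 genes was 0.03 at each dose, beside -0.01 for all probe sets. In the main fit with all arrays, the share that passed was under that of all probe sets in each comparison. Between the doses that order turned with an unmoderated test (3.8% against 3.57%) and with only probe sets above background (4.23% against 3.92%). At 50 µg/mL that order turned without STEE50-M replicate 1 (5 genes, 6.33% against 4.93%), with an unmoderated test (5 genes, 6.33% against 3.8%) and with a variance prior that follows the signal (6 genes, 7.59% against 4.92%).

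The CCN family, to which *Ctgf* belongs, had the median farthest from 0 among the 7 pathway lists. With 5 genes besides *Ctgf* it was also the shortest of these lists. *Cyr61* (RefSeq *Ccn1*, chr3:145646971-145649985), a secreted matricellular protein and a classic YAP-TEAD target, stood at 16.34 and 16.13 in Ctrl-M, 16.08 and 15.93 in STEE30-M, and 15.69 and 15.55 in STEE50-M. The groups did not overlap, and their order followed the dose as for *Tgfbr1*. *Cyr61* was lower at 50 µg/mL by 1.53-fold (log2 difference -0.61, SE 0.21, limma adjusted p = 0.952), and at 30 µg/mL the difference was -0.23 (SE 0.21). The call at 50 µg/mL was lost without Ctrl-M replicate 1, where the difference was -0.51, and without STEE50-M replicate 2, where it was -0.55.

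The other CCN genes did not pass the thresholds in the main fit. *Nov* (CCN3) was higher in replicate 1 of each group, and lower in each treated array than in the same-numbered Ctrl-M array. The gene stood at 10.03 and 9.26 in Ctrl-M, 9.40 and 8.87 in STEE30-M, and 9.35 and 8.49 in STEE50-M. Its differences were -0.51 and -0.72 (SE 0.36), and its arrays overlapped between groups. It passed at 50 µg/mL without Ctrl-M replicate 2, and also without STEE50-M replicate 1, where the difference was -1.16. *Wisp1* (CCN4) stood at 12.52 and 12.36, 12.18 and 12.40, and 12.01 and 12.10, with differences of -0.15 and -0.39 (SE 0.21). Of 15 alternatives at 50 µg/mL, 4 put *Nov* past the thresholds and 2 put *Wisp1* past them. *Wisp2* differed by -0.27 and 0.10, and *Wisp3* was below background. The median of the 5 genes besides *Ctgf* was -0.23 at 30 µg/mL and -0.39 at 50 µg/mL, beside -0.01 over all probe sets at each dose. All 5, with *Wisp3* at -0.14, had a difference under 0 at 30 µg/mL, and 3 of 5 at 50 µg/mL. The share of all probe sets under 0 was not counted, so nothing is read from these counts. Ctrl-M replicate 1 had the highest mean of these 5 genes, 10.06 against 9.68 in Ctrl-M replicate 2. Without it the median was -0.10 at 30 µg/mL, with 4 of 5 under 0, and -0.31 at 50 µg/mL.

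**Figure D3:**
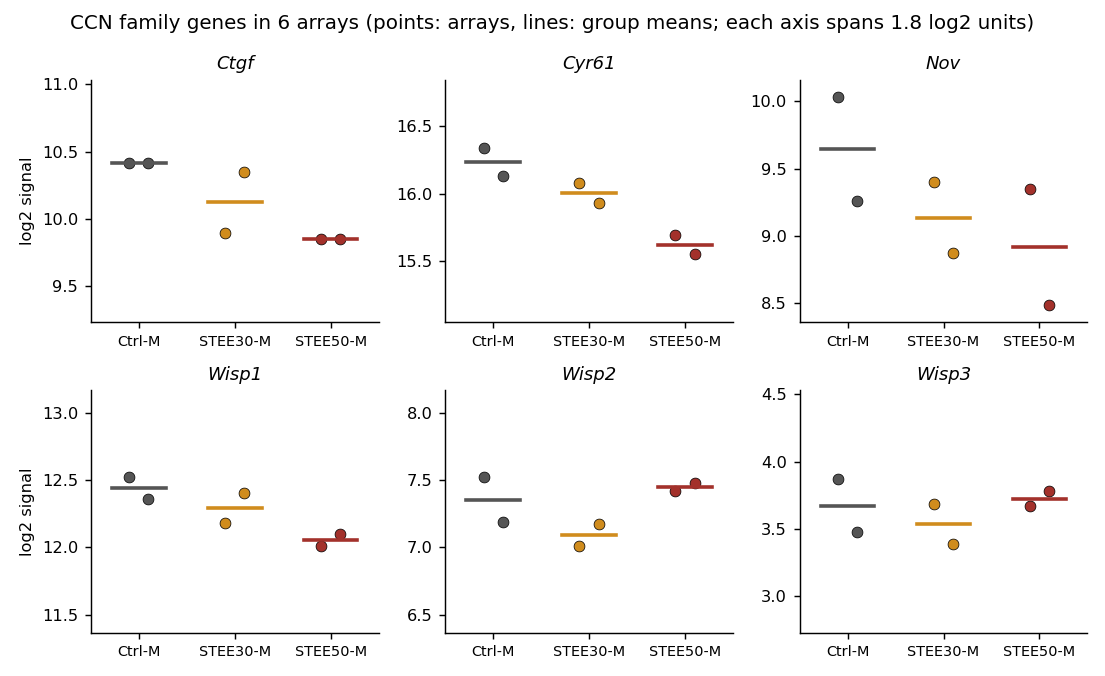
Log2 signal (y axis) of the 6 CCN family genes in Ctrl-M, STEE30-M and STEE50-M (x axis), with a point for each array and a line at each group mean. *Ctgf* and *Cyr61* are below both control arrays in all 4 treated arrays. The arrays of *Nov* overlap between groups, with replicate 1 the higher in each group. *Wisp2* and *Wisp3* have STEE50-M means close to those of Ctrl-M.

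The TGF-beta target list held 21 genes, among them collagens, *Fn1*, *Acta2* and the Id genes, and 20 were above background. In limma 0 passed in any of the 3 comparisons. Of all probe sets, 4.09% passed at 30 µg/mL, 5.05% at 50 µg/mL and 4.61% between the doses. In a list of this size a count of 0 is near those shares, and nothing is read from it. The medians were 0.02 at 30 µg/mL and 0.04 at 50 µg/mL. *Snai2*, a zinc finger repressor, differed by -0.18 and -0.37 (SE 0.21), and *Cdkn2b*, a cell cycle inhibitor, was below background.

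Of the 15 genes for YAP-TEAD effectors and targets, 0 passed in any comparison, and their median was 0.04 at each dose. Beside 4.09% to 5.05% of all probe sets, that count is not read further. *Yap1*, the coactivator itself, differed by 0.23 and 0.13 (SE 0.21), *Lats2*, the kinase that restrains it, by 0.24 and -0.03 (SE 0.23), and *Crim1*, a transmembrane protein, by -0.13 and -0.44 (SE 0.26). *Crim1* passed at 50 µg/mL without STEE50-M replicate 1 (-0.75). The 11 serum response genes, such as *Egr1* and *Fos*, gave 0 calls, again near the share of all probe sets, and medians of -0.01 and 0.07. Whether the medium or the ethanol had a part in the values of *Ctgf* was not tested.

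Among the 15 genes for storage and activation of latent TGF-beta, *Itgb6* stood out. It encodes the beta subunit of an integrin that pulls active ligand out of the latent complex, and it stood at 9.58 and 9.50 in Ctrl-M, 9.74 and 9.71 in STEE30-M, and 10.24 and 10.21 in STEE50-M. The arrays of each group lay close together and the groups did not overlap. *Itgb6* was higher at 50 µg/mL by 0.69 on the log2 scale (SE 0.20, limma adjusted p = 0.952), and at 30 µg/mL the difference was 0.18 (SE 0.20). *Nrros* and *Lrrc32*, which tether latent TGF-beta to the cell surface, passed at 30 µg/mL in opposite directions (0.73 and -0.59), and both were below background. The call of *Nrros* was lost without Ctrl-M replicate 2 or STEE30-M replicate 1 (0.56 in each case), and that of *Lrrc32* without any 1 array of Ctrl-M or STEE30-M (-0.71 to -0.47). The call of *Itgb6* at 50 µg/mL held with each array left out (0.65 to 0.72).

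Of the 6 other receptors and co-receptors, *Acvrl1*, a type I receptor of endothelial BMP and TGF-beta signalling, was higher at 30 µg/mL by 0.54 (SE 0.23, limma adjusted p = 0.998), near the background level at 5.71 and 5.97 in Ctrl-M against 6.60 and 6.16 in STEE30-M. In STEE50-M it differed by 0.33 (SE 0.23). Its call at 30 µg/mL was lost without either Ctrl-M array (0.41 and 0.67), without STEE30-M replicate 1 (0.32) and without either STEE50-M array (0.54). It was also lost with the replicate number as a block, with the unmoderated test, with the variance prior and with only the 2 groups in the fit. The pseudoreceptor *Bambi* was below background, and *Tgfbrap1*, a receptor-binding chaperone, differed by -0.10 and -0.18 (SE 0.21).

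None of the 7 other Smads and partners and none of the 10 negative regulators passed in any comparison in limma, with a threshold on the unadjusted p. With 4.09% to 5.05% of all probe sets past it, nothing is read from these counts. *Smad2*, the other receptor-activated Smad of TGF-beta, stood at 9.92 and 9.76 in Ctrl-M, 9.67 and 9.58 in STEE30-M, and 9.55 and 9.40 in STEE50-M. The groups did not overlap, and the difference was -0.21 at 30 µg/mL and -0.36 at 50 µg/mL (SE 0.20). *Smad6*, an inhibitory Smad, differed by 0.17 and -0.28 (SE 0.21), and *Zfyve9*, the anchor that presents Smads to the receptor, by -0.28 and 0.20 (SE 0.22). Among the negative regulators, the ubiquitin ligase *Peli1* differed by 0.00 and 0.40 (SE 0.22), *Smurf1* by 0.11 and -0.19 (SE 0.23) and *Smurf2* by -0.21 and -0.04 (SE 0.20).

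**Figure D4:**
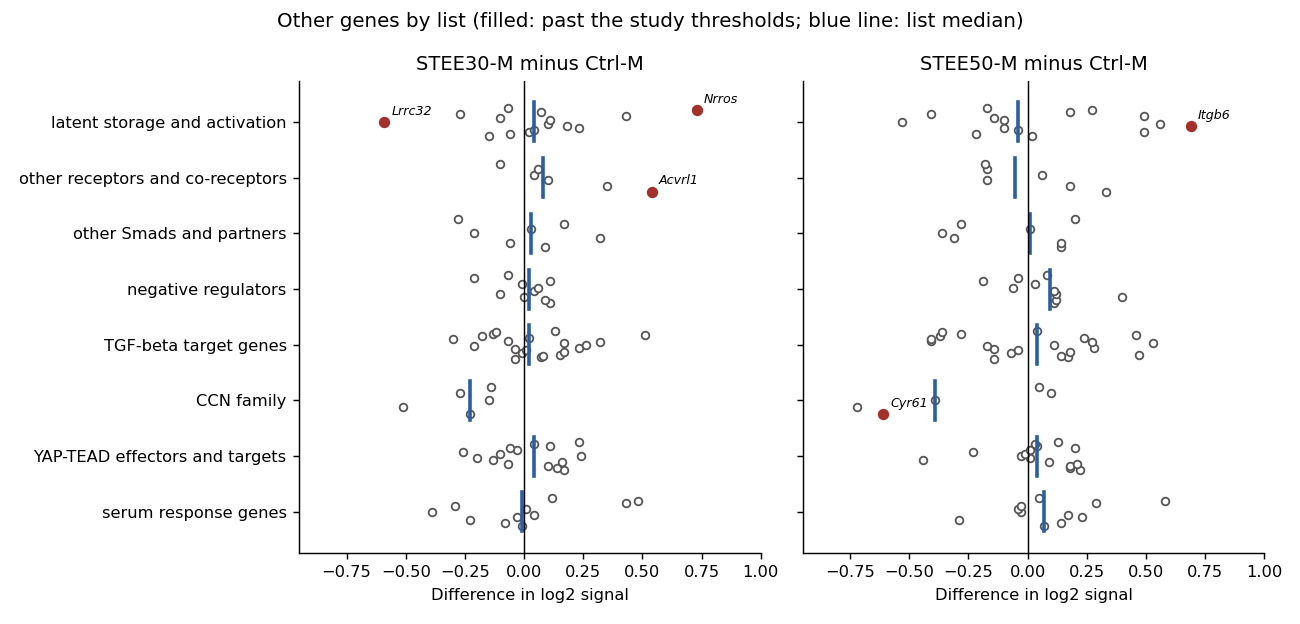
Difference in log2 signal from Ctrl-M (x axis) at 30 and 50 µg/mL for the genes of 7 pathway lists and the serum response genes (y axis), with filled points for genes past the study thresholds and a blue line at each list's median. The CCN family median is -0.23 and -0.39, and the medians of the other lists are between -0.06 and 0.10.

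RefSeq promoter windows of GRCm38.p6 were matched for 6 of the 9 genes and for *Cyr61*, and the 250 bases before the start of *Tgfbr1* (chr4:47352972-47353221, plus strand) and of *Cyr61* (chr3:145649986-145650235, minus strand) are shown because these genes were lower at 50 µg/mL in an order that followed the dose. That order is not particular to them. *Ctgf*, for which no window was matched, *Smad2* and *Snai2* also fell with dose without overlap of the groups. The share of all probe sets with such an order was not counted. Capitals mark GC boxes (GGGCGG or CCGCCC on the other strand) and, in *Cyr61*, also the TEAD core (GGAATG, here as CATTCC on the other strand).
Tgfbr1: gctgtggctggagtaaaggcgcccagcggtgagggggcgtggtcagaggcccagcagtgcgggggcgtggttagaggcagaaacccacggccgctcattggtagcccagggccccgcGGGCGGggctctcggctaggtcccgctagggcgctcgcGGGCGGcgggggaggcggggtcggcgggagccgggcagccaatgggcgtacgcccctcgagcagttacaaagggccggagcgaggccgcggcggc
Cyr61: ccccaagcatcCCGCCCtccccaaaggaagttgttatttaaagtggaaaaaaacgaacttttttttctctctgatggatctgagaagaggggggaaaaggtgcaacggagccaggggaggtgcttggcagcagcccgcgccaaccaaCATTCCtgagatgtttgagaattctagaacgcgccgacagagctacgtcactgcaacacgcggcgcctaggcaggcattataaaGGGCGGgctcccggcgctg
The window of *Cyr61* held 1 TEAD core, 103 bases before the start, and 2 GC boxes. The window of *Tgfbr1* shown here, the one before the gene's annotated start, held 2 GC boxes and no TEAD core. In windows of this length, 12.6% of 32851 RefSeq promoters hold the TEAD core and 32.7% a GC box, counted on both strands. Neither of the windows shown held the Smad box (CAGAC, in 42.2% of promoters) or the TGIF core (TGTCA, in 40.0%). RefSeq gives *Tgfbr1* another window, before an internal start (chr4:47385966-47386215), which held 1 Smad box, 1 TGIF core, and neither a GC box nor a TEAD core. None of the 4 motifs lies within another. A match of letters is a description and shows no binding.

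The window of *Tgif2* held 1 TEAD core and 4 GC boxes. The 30 bases around its TEAD core (chr2:156839878-156839907, plus strand), which lie within the annotated gene because another transcript starts upstream, are shown for comparison with *Cyr61*, with the core in capitals.
Tgif2: ccggccatgcggCATTCCtaaggtgggtgg

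Genes with a pattern over the 6 arrays most like *Ctgf* were found by Pearson's r over the 6 arrays among 12052 genes above background. They were *Efemp2* (r = 0.995), which encodes a matrix protein of elastic fibres, *Zfp607* (0.989), *Upf3a* (0.988), a factor of nonsense-mediated decay, *Ube2t* (0.987), a ubiquitin-conjugating enzyme of DNA repair, and *Fkbp5* (0.984), a glucocorticoid-induced chaperone. Their log2 differences at 50 µg/mL were smaller than that of *Ctgf*, from -0.37 to -0.21. For *Tgif2* they were *Egln2* (0.981), a prolyl hydroxylase, *Slc25a51* (0.975), the mitochondrial NAD carrier, *Tcp11l1* (0.975), *AI467606* (0.975) and *Marf1* (0.972). With 6 arrays in 3 groups, 99 genes reached r above 0.9 with *Ctgf* and 75 with *Tgif2*, so these likenesses are a description.

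**Figure D5:**
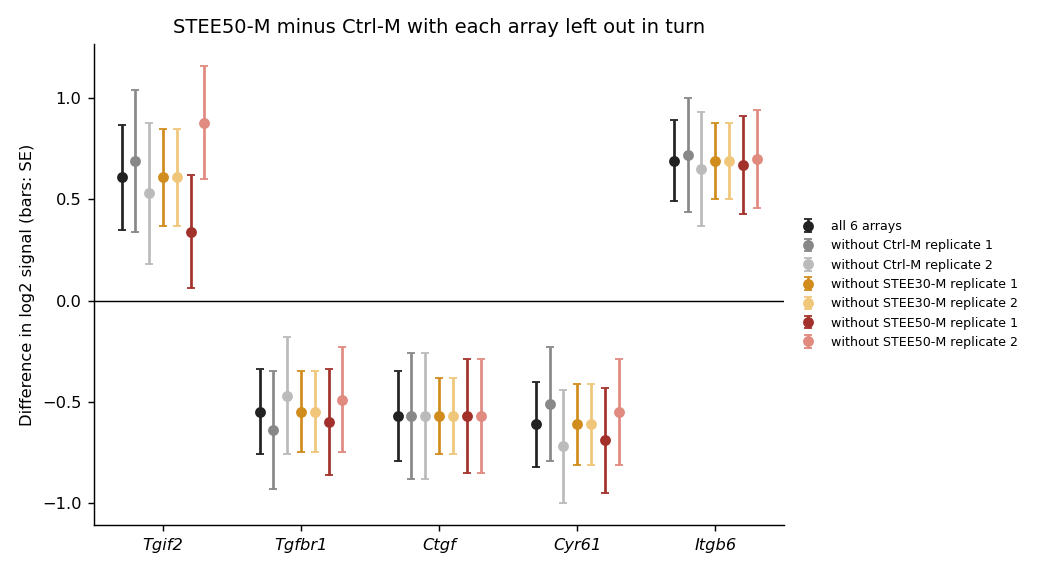
Difference in log2 signal between STEE50-M and Ctrl-M (y axis, bars are standard errors) for 5 genes (x axis), with all 6 arrays and with each array left out in turn. *Itgb6* stays between 0.65 and 0.72. *Ctgf* stays at -0.57, as its arrays were equal to 2 decimals within Ctrl-M and within STEE50-M. *Tgif2* runs from 0.34 without STEE50-M replicate 1 to 0.88 without STEE50-M replicate 2.

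The number of the 9 genes past the thresholds depended on single arrays. At 30 µg/mL it was 0 without Ctrl-M replicate 2 or STEE30-M replicate 2. In STEE50-M it was 0 without Ctrl-M replicate 1, Ctrl-M replicate 2 or STEE50-M replicate 1, and 1 without STEE50-M replicate 2. The direction of *Ctgf*, *Tgfbr1* and *Tgif2* against Ctrl-M was the same with any 1 array left out.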

How the data were processed

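Clariom S Mouse arrays (6, with 2 a group) measured RNA of C2C12 myotubes, and the sample labels gave the groups. The HepG2 arrays of the study were not analysed here. The authors deposited log2 signals made by SST-RMA over the 6 arrays together (per the file headers a GC correction, background adjustment, quantile normalization and median polish, Expression Console 1.4.1.46), rounded to 2 decimals, with gene symbols of the mm10 annotation. The series' value table held the same values, 173076 of 173076 being equal. The authors' comparison table (group averages, folds, ANOVA p-values) was used for its symbols and for 1 check of scale. Its Ctrl-M average of log2 signals, the authors' mean, has an SD over probe sets of 2.23, against 3.39 for the arrays, a ratio of 1.52, so folds here are on the scale of the deposited arrays. No source used here gives the cause of that difference.

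Array control rows (6640) were left out, and 22206 probe sets entered limma 3.58.1 in R 4.3.3 (lmFit and eBayes, 3 group means over the 6 arrays, residual degrees of freedom 3, prior degrees of freedom 5.75) with no filter on signal. The Benjamini-Hochberg adjustment ran across all probe sets. The paper's methods word the fold minimum of 1.2 as a log2 change, and it was read as linear. The study set its thresholds with ANOVA p-values, and here they were set with those of limma. On the wider scale of the deposited arrays the fold minimum is looser than on the authors' averages. It removed no probe set, since 909, 1121 and 1023 had an unadjusted p under 0.05 and the same numbers passed both thresholds. An exact permutation test of 2 arrays against 2 cannot go below p = 0.333. The 2 arrays a group limit the precision. The members and gene lists were chosen with earlier results of these data known. Named were all 9 members, the 3 genes of each of 7 lists with the smallest p in either comparison with Ctrl-M, and the 5 genes most like *Ctgf* and *Tgif2*. Other genes were named as members of a list or markers. The values of 1 gene that this rule would name are not reported here. Alternatives were each array left out in turn, the replicate number as a block, other normalizations, filters and variance models, and a higher fold minimum.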

Additional observations from a re-analysis of the deposited data

Results flagged for a closer look

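Between the 2 doses, *Itgb6* was the 1 of the 79 other genes past the unadjusted thresholds, or 1.27% against 4.61% of all probe sets. The difference STEE50-M minus STEE30-M was 0.50 on the log2 scale (SE 0.20, limma adjusted p = 0.997), past the study's unadjusted thresholds, with the 2 arrays at 50 µg/mL above the 2 at 30 µg/mL. It kept its size with each array left out, from 0.48 to 0.52, but it did not pass the thresholds with any 1 array left out, and 7 of 15 alternatives kept it past them.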

How the results depend on the processing

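For the 9 genes at 30 µg/mL (1 past the thresholds) the count ranged from 0 to 1 with each array left out and was 0 with the unmoderated test. At 50 µg/mL (3) it ranged from 0 to 3, was 1 with the unmoderated test (*Tgfbr1*) and 1 with a fold minimum of 1.5 (*Tgif2*). Between the doses (0) it ranged from 0 to 1, the 1 being *Tgfb2* without STEE30-M replicate 2.

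For the 79 other genes at 30 µg/mL (3) the count ranged from 0 to 3 with each array left out, was 0 with the unmoderated test, and was 1 with a variance prior following the signal and with only probe sets above background. At 50 µg/mL (2) it ranged from 2 to 5, was 5 with the unmoderated test (6.33% of the 79 against 3.8% of all probe sets) and 6 with the variance prior following the signal (7.59% against 4.92%). Between the doses (1) it ranged from 0 to 3. It was 3 with the unmoderated test, the variance prior, only probe sets above background and quantile normalization, 2 with arrays centred on their medians, and 0 with only the 2 groups compared and with a fold minimum of 1.5.

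The labels do not say whether same-numbered arrays were paired. The deviations of same-numbered arrays from their group means correlated at 0.0228, 0.0636 and -0.0076 between the groups. Some list means still had the same replicate order in Ctrl-M, STEE30-M and STEE50-M. The mean of the myotube markers was higher in replicate 2 (14.76 and 14.92, 14.75 and 15.14, 14.93 and 15.54). That of the 5 CCN genes was higher in replicate 1 (10.06 and 9.68, 9.67 and 9.55, 9.63 and 9.48). The 9 genes had no common order (10.84 and 10.84, 10.84 and 10.92, 10.84 and 10.80). These correlations therefore do not settle whether the arrays were paired. With the replicate number as a block, the 9 genes gave 1, 2 (*Tgfbr1* and *Ctgf*) and 0 calls in the 3 comparisons, and the 79 other genes 3, 3 and 2. At 30 µg/mL the 3 were 1 higher and 2 lower, in place of 2 and 1, and *Acvrl1* was no longer among them.

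Some log2 differences changed sign with 1 array left out, among them those of *Tgfb1*, *Tgfb2*, *Tgfb3*, *Tgfbr2*, *Smad3* and *Smad7* in at least 1 comparison with Ctrl-M. The ranges at 30 µg/mL were -0.01 to 0.72 for *Bambi*, -0.04 to 0.26 for *Smurf1*, -0.20 to 0.01 for *Tgfbrap1* and -0.31 to 0.05 for *Crim1*. At 50 µg/mL they were -0.03 to 0.39 for *Bambi*, -0.12 to 0.04 for *Smurf2* and -0.15 to 0.10 for *Lats2*. The cause was not tested. Fits without 1 array assume that the single array remaining in a group varies as the other groups do. Signals near or under the background level of 5.32, as for *Smad7*, *Nrros*, *Lrrc32* and *Acvrl1*, limit what can be read from those probe sets.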
